A study of Mus musculus with 8 samples.

Results

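The mitochondrial chromosome of the mouse was represented in the table by 37 genes of 55536 in all: 2 ribosomal RNA (rRNA) genes, 22 transfer RNA (tRNA) genes and 13 protein-coding genes. Members were taken as every row that the table places on chromosome MT, and the table's own biotype column separated the kinds. RNA came from posterior palatal shelves, the folds that grow from the upper jaw and later fuse into the palate, dissected at E14.5 before elevation, with epithelium and mesenchyme together. The 4 control libraries were from Yapfl/fl;Tazfl/fl embryos, which carry floxed alleles and no Cre. The 4 mutant libraries were from Yapfl/fl;Tazfl/fl;Col2Cre embryos, in which a Cre driven by Col2a1 regulatory sequence can delete both genes in the cells where it is active. Floxed alleles were thus common to both groups, and a shelf holds cells with and without Cre activity. Whether each library came from its own embryo is not stated in the labels, and a p-value here reflects only how far these samples differ, which may be technical.

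Mitochondrial DNA is a small circle present in many copies per cell. It is transcribed from both strands as long precursors, which are cut at the tRNAs that lie between most of the other genes. The rRNAs enter the mitochondrial ribosome, and that ribosome translates the messages into subunits of respiratory complexes I, III and IV and of ATP synthase. All other subunits, the ribosomal proteins and the enzymes that copy, transcribe and mature these RNAs are encoded in the nucleus and imported. In bulk tissue, fewer cells of a kind and less RNA per cell cannot be told apart.

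Depth was even, at 29025089 to 32437977 recovered reads per library, and limma called 4 genes of 16647 tested (0.024%) at an adjusted p below 0.05. Yap1 had 9095 to 10086 normalised counts in controls and 8221 to 8745 in mutants, without overlap. Wwtr1, the gene of TAZ, had 4449 to 5305 in controls and 3650 to 4574 in mutants, with overlap. Neither passed the adjusted test. The 12 palatal mesenchyme markers, among them Osr2 and Tbx22, were all tested, and their summed counts were 88667 to 98190 in controls and 84955 to 102500 in mutants.

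The clearest feature of the 37 genes was a block listed at 0. In every one of the 8 libraries 18 genes were listed at 0, namely 12 tRNA genes and 6 protein-coding genes. The 6 were mt-Co2 and mt-Co3 (subunits of complex IV), mt-Atp8 and mt-Atp6 (subunits of ATP synthase), and mt-Nd3 and mt-Nd4l (subunits of complex I). They are neighbours on the circle, with 5 tRNA genes between and beside them: mt-Ts1, mt-Td, mt-Tk, mt-Tg and mt-Tr. These messages are in use in every respiring cell, so their 0 is stated here only as a listed value. Most of the same stretch has near-identical annotated copies on chromosome 1. In the annotation of GRCm38 (GENCODE M21) 7 pseudogenes lie there side by side on the minus strand, chr1:24611535-24616197. In the order of their mitochondrial counterparts they are Gm29216 (the end of mt-Co1), Gm28661 (mt-Co2), Gm10925 (mt-Atp6), Gm28437 (mt-Co3), Gm28438 (mt-Nd3), Gm10222 (mt-Nd4l) and Gm28439 (the start of mt-Nd4). Their counterpart is MT from 6381 to 11042, a stretch of 4662 bases against 4663 on chromosome 1.

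Aligned without gaps to the mitochondrial genes, the 7 pseudogenes had aligned lengths that summed to 4149 bases, with 7 mismatches in all. Bases where Gm10222 and Gm28439 overlap were counted for both. Identity was 100% for Gm28661, Gm10925, Gm28437, Gm10222 and Gm28439, 99.71% for Gm28438 and 98.78% for Gm29216. The distances between neighbouring pseudogenes equalled those between the mitochondrial genes in 5 of 6 spacings, that overlap included. The exception was 74 bases against 73 between Gm28438 and Gm10222. Both places with mismatches are shown because the aligned sequences differ only there. The bases between the pseudogenes were not compared. All mitochondrial and pseudogene sequences here are GENCODE M21 transcripts on GRCm38, printed 5′ to 3′ in the sense of the gene. For the pair below from the end of mt-Co1 (bases 1054 to 1113 of the gene), capitals mark the bases that differ, which are T1056A, C1057T, A1059G, A1060G, C1062A and A1066T, counted from the first base of mt-Co1 with the mitochondrial base first.
mt-Co1: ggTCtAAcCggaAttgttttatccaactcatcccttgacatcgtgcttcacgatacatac
Gm29216: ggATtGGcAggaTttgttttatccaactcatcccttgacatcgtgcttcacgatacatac

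The mt-Nd3 pair covers the first 60 bases of the gene. Its single difference, in capitals, is T3C, counted from the first base of mt-Nd3.
mt-Nd3: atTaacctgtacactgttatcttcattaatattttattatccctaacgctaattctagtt
Gm28438: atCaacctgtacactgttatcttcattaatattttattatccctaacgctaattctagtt

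The edge of the annotated copy inside mt-Nd4 is shown next because Gm28439 ends there. Whether chromosome 1 matches mt-Nd4 beyond that edge was not examined, since only annotated transcripts were compared. Capitals mark the 40 bases, up to MT 11042, that Gm28439 also holds, and lower case the 40 bases after it.
mt-Nd4: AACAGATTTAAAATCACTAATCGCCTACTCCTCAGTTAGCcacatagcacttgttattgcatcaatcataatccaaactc

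How the listed values fell around these edges was as follows. All 11 genes wholly inside the stretch spanned by the copies, 6 protein-coding and 5 tRNA, were listed at 0 in every library. The 2 genes partly inside it, mt-Co1 and mt-Nd4, had values. The 5 tRNA genes and mt-Atp8 have no annotated pseudogene of their own there, so they were not compared with chromosome 1. Of the 26 genes not wholly inside, 7 were listed at 0, and all 7 were tRNA genes (mt-Tf, mt-Tn, mt-Tc, mt-Ty, mt-Th, mt-Ts2 and mt-Tp). Windows of 50 bases, a length set for this comparison, were searched in every other annotated transcript on both strands. Of the windows of mt-Co2 100% were found elsewhere, as were 99.5% for mt-Atp6, 99.9% for mt-Co3, 98.0% for mt-Nd3 and 98.8% for mt-Nd4l. The share was 62.2% for mt-Nd4 and 51.1% for mt-Co1, 8.2% for mt-Nd2, 7.6% for mt-Nd5 and 1.0% for mt-Rnr2. No such window of mt-Rnr1, mt-Nd1, mt-Nd6 or mt-Cytb was shared. The sources used here do not say how reads that match several places were counted, and the part of the copy in the zeros was not tested.

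mt-Atp8 lies wholly inside the stretch but has no annotated pseudogene of its own, so its windows could not be compared with the copy. It is printed whole because its last 43 bases, in capitals, are at the same time the first bases of mt-Atp6 in another reading frame.
mt-Atp8: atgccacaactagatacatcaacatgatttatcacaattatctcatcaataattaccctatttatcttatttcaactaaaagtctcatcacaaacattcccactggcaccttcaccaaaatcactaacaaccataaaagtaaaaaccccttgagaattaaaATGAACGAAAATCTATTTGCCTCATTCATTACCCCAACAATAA

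The copies themselves were also near 0. Gm28437, Gm10222 and Gm28439 were listed at 0 in every library, and Gm29216, Gm28661 and Gm10925 reached at most 4.0, 1.0 and 2.0. Gm28438, the copy of mt-Nd3, was the exception, with 60.7, 39.0, 60.5 and 52.0 normalised counts in the controls and 21.4, 47.3, 40.5 and 45.5 in the mutants, which overlapped. A second group of copies on chromosome 2 carried low counts as well. Gm13340, which shares windows with mt-Co1, had 29.5 to 58.5 in controls and 30.1 to 48.6 in mutants, and Gm13341, which shares windows with mt-Co2, had 19.2 to 30.3 and 11.6 to 21.8.

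**Figure D1:**
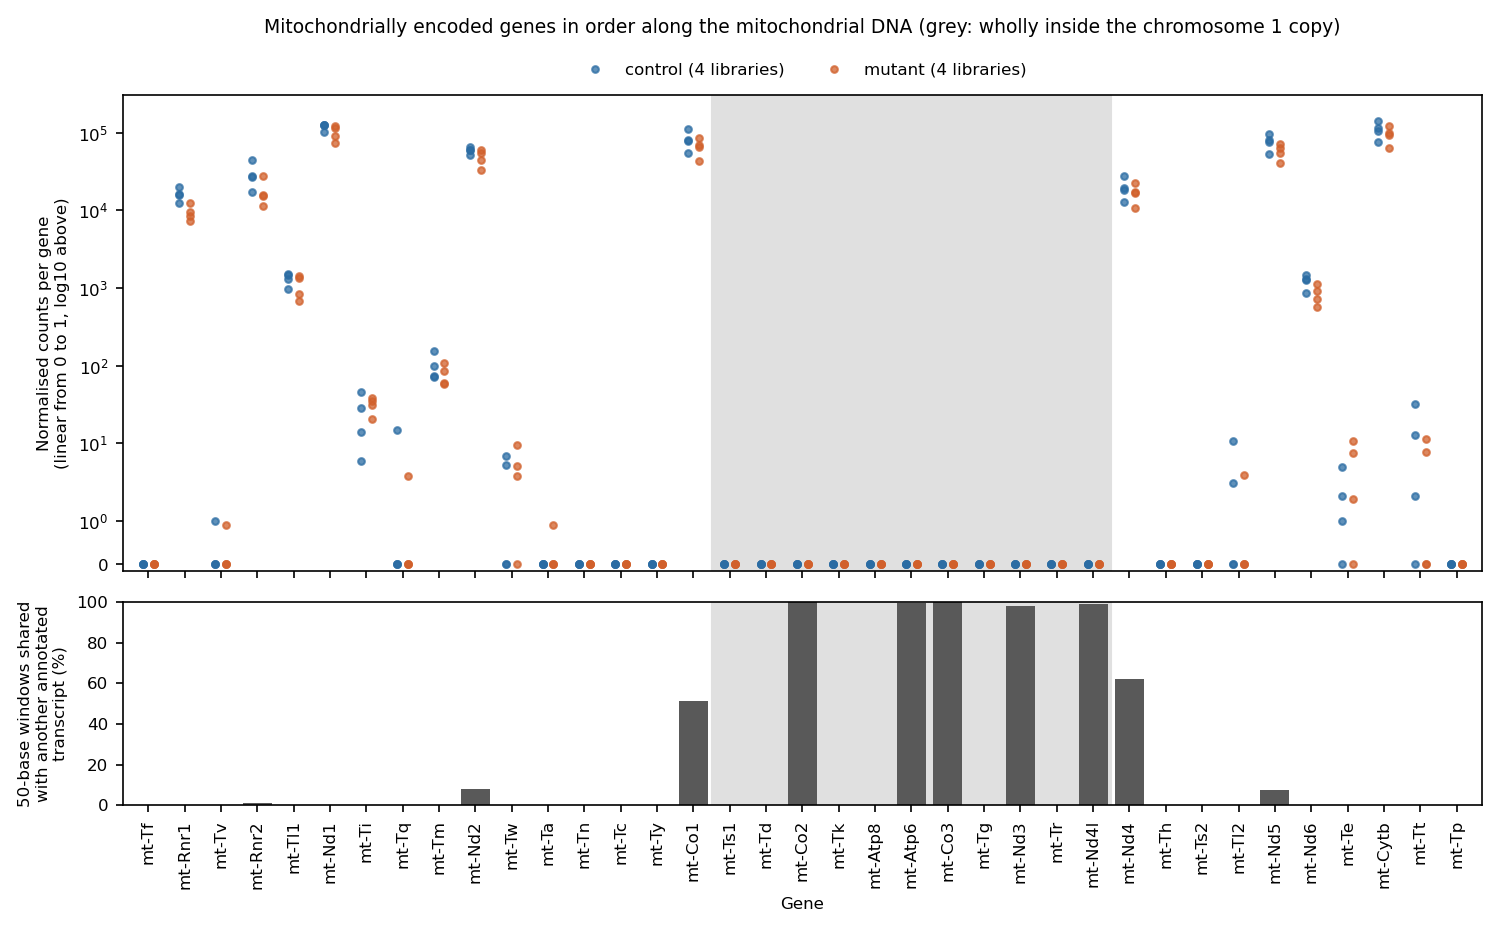
The upper panel plots the normalised counts of each of the 37 genes in each of the 4 control and 4 mutant libraries, in order along the mitochondrial DNA, on an axis that is linear up to 1 and logarithmic above. The lower panel gives the share of 50-base windows found in another annotated transcript. No bar is seen for the tRNA genes and mt-Atp8, which have no annotated copy, nor for mt-Rnr1, mt-Nd1, mt-Nd6 and mt-Cytb. The 11 genes in the grey block, wholly inside the stretch spanned by the chromosome 1 copies, sit at 0 in all libraries.

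Of the 37 genes, 19 had a count above 0 in at least 1 library and 12 passed the filter of at least 10 normalised counts in at least 4 of the 8 libraries. The 12 were both rRNA genes, 7 protein-coding genes (mt-Nd1, mt-Nd2, mt-Nd4, mt-Nd5, mt-Nd6, mt-Cytb and mt-Co1) and 3 tRNA genes (mt-Tl1, mt-Ti and mt-Tm). Control and mutant means differed in the same direction for 11 of these 12, which were lower in mutants, and mt-Ti had the higher mean. Lower means were found for 50% of all genes tested. The median log2 difference of the 12 was -0.33, against -0.00015 over all genes tested. None of the 12 passed limma's adjusted test, and none was called by edgeR, by DESeq2 or under any other setting tried. An unadjusted limma p below 0.05 with a lower mean was reached by 3 of them (mt-Rnr1, mt-Rnr2 and mt-Nd6), against 3.79% of all genes tested. In none of the 12 did every mutant library lie below every control library, a pattern shown by 1.91% of all genes tested. The 12 genes share precursors, libraries and depth and are not independent of each other.

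Of the 12 tested genes, the rRNA genes had the lowest log2 differences, although mt-Nd6 was below mt-Rnr1 with title numbers as a block (-0.81 against -0.77) and below mt-Rnr2 without control 3 (-0.55 against -0.48). mt-Rnr1 (ENSMUSG00000064337, MT from 70 to 1024, plus strand) encodes the 12S RNA of the small ribosomal subunit. It had 12217, 20064, 15772 and 16265 normalised counts in controls 1 to 4, and 7317, 12366, 8419 and 9587 in mutants 1 to 4. The groups overlapped by 1 library, since mutant 2 lay just above control 1. The means were 16079 ± 3211 (SD, n = 4) and 9422 ± 2171 (SD, n = 4), a log2 difference of -0.78 with an SE of 0.161. Its unadjusted p of 0.000452 became an adjusted p of 0.576 by limma over 16647 genes. Leaving out each library in turn gave log2 differences from -0.92 to -0.66, and the smallest adjusted p, 0.0765, came without mutant 2.

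mt-Rnr2 (ENSMUSG00000064339, MT from 1094 to 2675, plus strand) encodes the 16S RNA of the large ribosomal subunit. Controls 1 to 4 had 17198, 27557, 44320 and 26878 normalised counts, and mutants 1 to 4 had 11482, 27929, 15313 and 15836. Mutant 2 exceeded 3 of the 4 controls, and control 3 stood above all other libraries. The log2 difference was -0.71 with an SE of 0.280 (limma, adjusted p = 0.754), and it was -0.48 without control 3 and -0.96 without mutant 2. The ratio of mt-Rnr2 to mt-Rnr1 counts was 2.81 in control 3 and 1.37 to 1.65 in the other 3 controls, and 1.57 to 2.26 in mutants. The pair of rRNAs, which are made from the same precursor, thus did not keep a fixed ratio between libraries.

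Relative to the messages, the rRNAs were lower in every mutant library. Per 100 counts of mitochondrial mRNA, the rRNA counts were 8.44, 9.97, 10.7 and 9.20 in controls 1 to 4, and 7.10, 8.33, 6.48 and 6.04 in mutants 1 to 4. The highest mutant lay just under the lowest control. The means were 9.59 ± 0.992 (SD, n = 4) and 6.99 ± 0.994 (SD, n = 4). mt-Rnr1 alone showed the same order, with 2.82 to 4.20 per 100 in controls and 2.28 to 2.76 in mutants, whereas mt-Rnr2 overlapped, with 4.93 to 7.92 and 3.76 to 5.77. Titles carry numbers whose meaning the labels do not give. As every mutant lay below every control on the summed ratio, each number held by both groups had to show the same direction. The values within numbers are therefore a description only. Among the 3 libraries numbered 3602 the ratio was 10.7 in the control and 7.41 on average in the mutants, and among the 3 numbered 2057 it was 9.59 on average in the controls and 6.04 in the mutant. The ratio is a sum over members and is given as a description, with no test. Apart from this sum and mt-Rnr1 per 100 mRNA counts, the shares and ratios of mitochondrial RNAs examined overlapped between the groups.

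Other RNAs that are not matured like ordinary messages were also lower in the mutant group. Transcripts of the nuclear rRNA locus, mainly Gm42418, made up 5.09%, 5.68%, 4.24% and 5.47% of counts in controls 1 to 4 and 2.50%, 2.07%, 2.24% and 1.57% in mutants 1 to 4, without overlap. Rn7sk, a nuclear small RNA without a poly(A) tail, had 486.3 to 946.7 normalised counts in controls and 216.5 to 319.4 in mutants. Of the 10 non-polyadenylated nuclear RNAs listed, 4 were tested, all 4 had lower means, and limma called 3 (Gm42418, Gm23935 and CT010467.1), against 0.024% of all genes. The list was chosen with earlier results of these data known, so its calls are a description only. Gm42418 and CT010467.1 together make up the nuclear rRNA locus above. With robust variances, and without control 2, control 4 or mutant 3, limma called no gene at all. Their part in the rRNA values was not tested. Within the groups the nuclear rRNA share and mitochondrial rRNA per 100 mRNA counts ordered the libraries differently. From highest to lowest, controls ran 2, 4, 1 and 3 on the share and 3, 2, 4 and 1 on the ratio. Mutants ran 1, 3, 2 and 4 on the share and 2, 1, 3 and 4 on the ratio. Mutant 2 had the highest mitochondrial rRNA ratio among mutants and a nuclear rRNA share below those of mutants 1 and 3. Control 3 had the lowest nuclear rRNA share and the highest mitochondrial rRNA counts per 100 mRNA counts among controls.

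**Figure D2:**
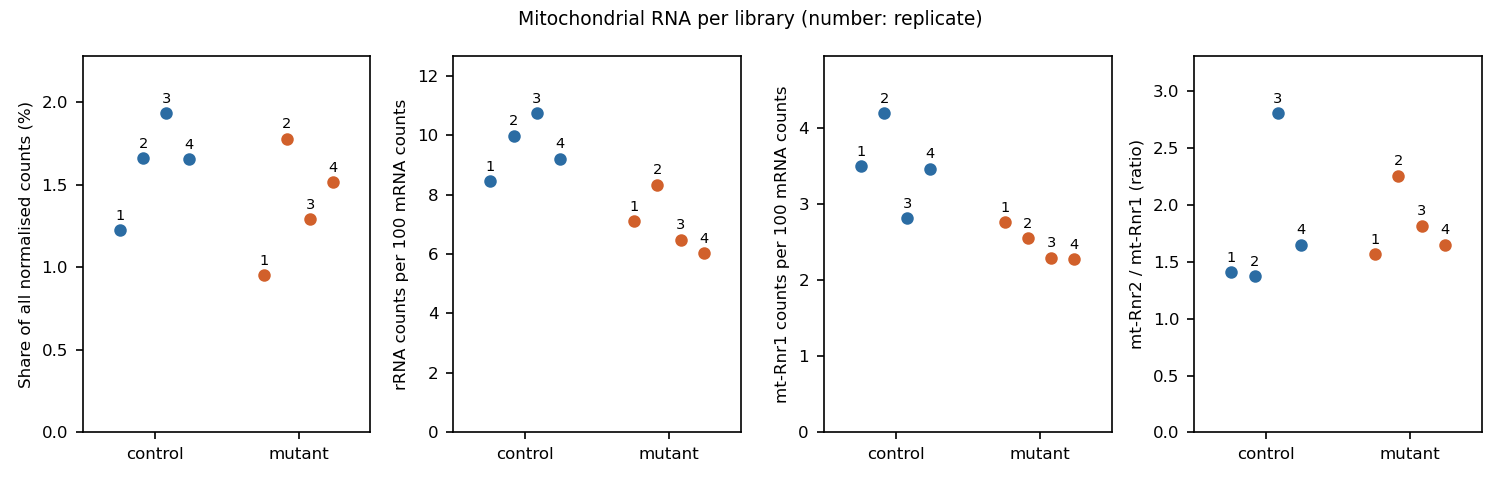
Each point is a library, numbered by replicate, in controls (blue) and mutants (orange). The panels give the mitochondrial share of all normalised counts in percent, rRNA counts and mt-Rnr1 counts per 100 mitochondrial mRNA counts, and the ratio of mt-Rnr2 to mt-Rnr1. The groups are apart in the middle panels, at 8.44 or more against 8.33 or less and at 2.82 or more against 2.76 or less, and overlap in the outer ones.

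Messages of complex I came from 5 genes with values. mt-Nd1 (ENSMUSG00000064341, MT from 2751 to 3707) encodes a membrane-arm subunit next to the quinone site. It had 101128, 124484, 123452 and 126611 normalised counts in controls 1 to 4 and 73041, 122287, 91570 and 115521 in mutants 1 to 4. The mutants ranged more widely than the controls and overlapped them. Its log2 difference was -0.26 with an SE of 0.145 (limma, adjusted p = 0.773). mt-Nd2 (ENSMUSG00000064345, MT from 3914 to 4951), another membrane-arm subunit, followed mt-Nd1 closely: the ratio of their counts was 0.481 to 0.512 in controls and 0.453 to 0.486 in mutants. Its means were 58970 ± 5684 (SD, n = 4) and 47968 ± 11750 (SD, n = 4), a log2 difference of -0.33.

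mt-Nd5 (ENSMUSG00000064367, MT from 11742 to 13565), a proton-pumping subunit, had 53124 to 95348 normalised counts in controls and 40993 to 71396 in mutants. Its log2 difference of -0.40 had an SE of 0.184 (limma, adjusted p = 0.754). mt-Nd4 (ENSMUSG00000064363, MT from 10167 to 11544), also a proton-pumping subunit, had 12785 to 27376 in controls and 10657 to 22591 in mutants, and its log2 difference was -0.21. That value rested on a few libraries, being -0.0097 without mutant 1 and -0.03 without control 3.

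mt-Nd6 (ENSMUSG00000064368, MT from 13552 to 14070) is the only protein-coding gene of the circle on the minus strand. It had 872.1, 1457, 1275 and 1288 normalised counts in controls 1 to 4 and 725.4, 1113, 909.8 and 563.4 in mutants 1 to 4. Mutants 2 and 3 lay above control 1, and mutant 4 was the lowest library. The means were 1223 ± 248 (SD, n = 4) and 828 ± 237 (SD, n = 4), a log2 difference of -0.58 with an SE of 0.202 (limma, unadjusted p = 0.0138, adjusted p = 0.754). Against 100 counts of mt-Nd5 on the opposite strand, mt-Nd6 had 1.34 to 1.84 in controls, 1.56 to 1.77 in mutants 1 to 3 and 0.886 in mutant 4. The ends of both genes overlap by 14 bases, in capitals in the last 40 bases of mt-Nd5 below. The sources used here do not give the strand setting of the counting, so reads of mt-Nd6 and antisense reads of the other strand's precursor cannot be told apart.
mt-Nd5: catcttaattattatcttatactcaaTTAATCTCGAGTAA

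mt-Cytb (ENSMUSG00000064370, MT from 14145 to 15288), the mitochondrially encoded subunit of complex III, had 75293, 114483, 142406 and 105136 normalised counts in controls 1 to 4. Mutants 1 to 4 had 62818, 122894, 92863 and 99874, which overlapped the controls. Its log2 difference was -0.21 with an SE of 0.207 (limma, adjusted p = 0.878), and it was -0.03 without mutant 1 and -0.07 without control 3. mt-Co1 (ENSMUSG00000064351, MT from 5328 to 6872), the catalytic subunit of complex IV, had 54135 to 109601 in controls and 43512 to 84153 in mutants, a log2 difference of -0.28. Like mt-Cytb, mt-Nd4 and mt-Nd5, it was highest in control 3. Counts of mt-Cytb per count of mt-Co1 stayed within 1.30 to 1.43 in controls and 1.41 to 1.46 in mutants.

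**Figure D3:**
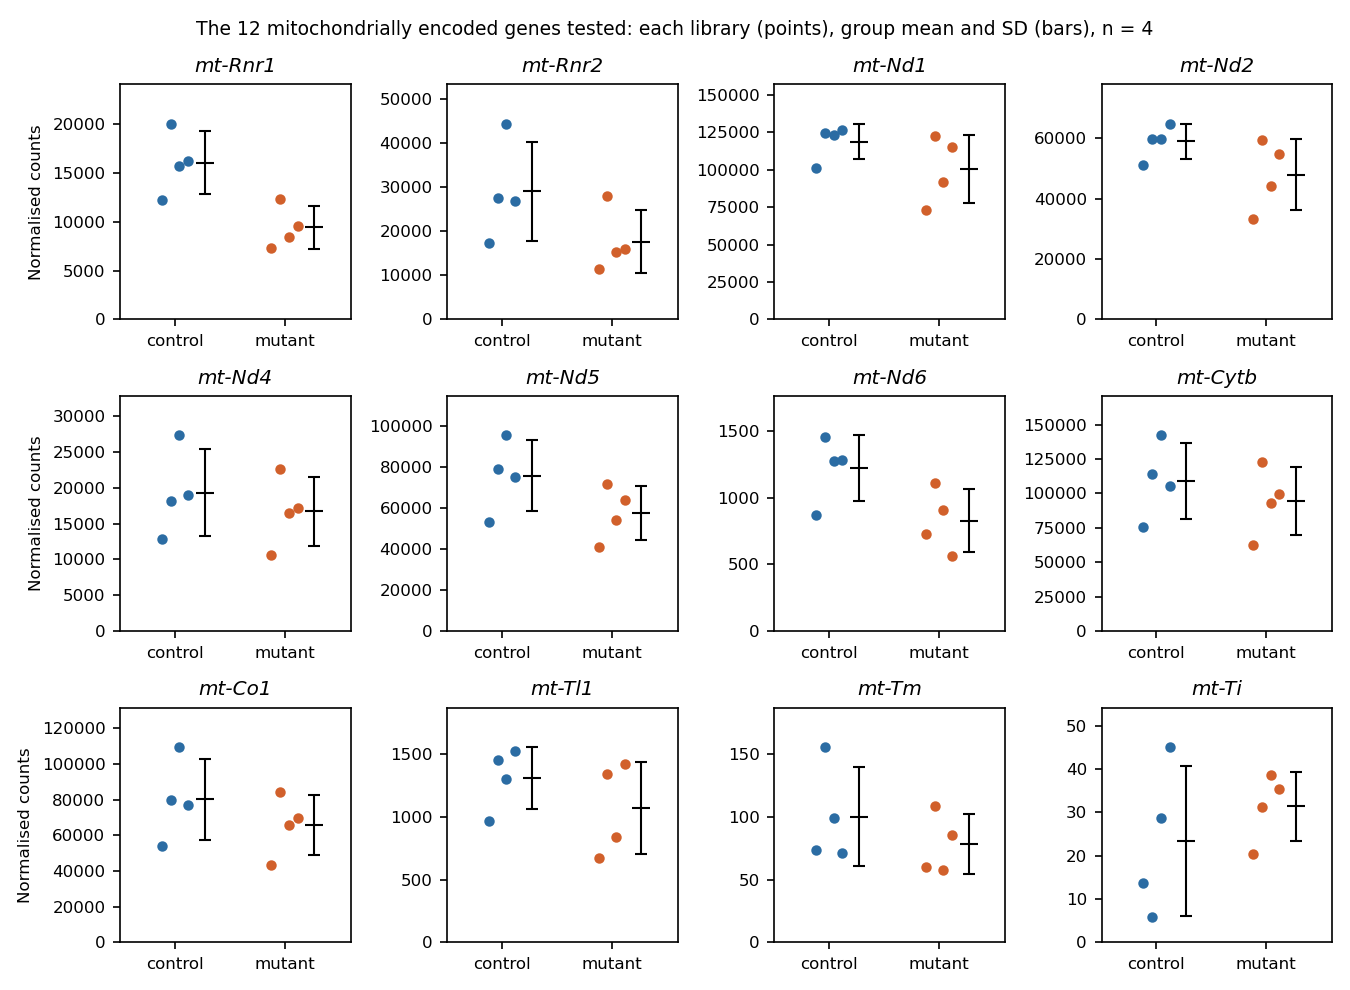
Normalised counts (linear axes from 0) of the 12 tested genes in 4 control (blue) and 4 mutant (orange) libraries, with the mean and SD of each group in black. Within each group, points run from replicate 1 on the left to replicate 4 on the right. The groups overlap in every panel, by 1 library for mt-Rnr1, and mt-Ti is the panel with the higher mutant mean.

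Only 3 tRNA genes were tested, and mt-Tl1 held most of the tRNA counts, 89.2% to 90.6% in controls and 86.8% to 91.8% in mutants. It decodes leucine and lies between mt-Rnr2 and mt-Nd1. mt-Tl1 (ENSMUSG00000064340, MT from 2676 to 2750) had 970.0, 1457, 1302 and 1528 normalised counts in controls and 673.9, 1340, 843.3 and 1423 in mutants, which overlapped. The log2 difference was -0.34 with an SE of 0.224 (limma, adjusted p = 0.805), and it was -0.14 without mutant 1. Against 1000 counts of its neighbour mt-Nd1 it had 9.59 to 12.1 in controls and 9.21 to 12.3 in mutants. mt-Tm (ENSMUSG00000064344, MT from 3845 to 3913), the methionine tRNA, had 71.7 to 156.2 in controls and 57.9 to 108.8 in mutants.

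mt-Ti (ENSMUSG00000064342, MT from 3706 to 3774), the isoleucine tRNA, was low in all libraries. It had 13.8, 5.9, 28.7 and 45.2 normalised counts in controls 1 to 4 and 20.4, 31.2, 38.6 and 35.4 in mutants 1 to 4. The mutants lay inside the range of the controls. The log2 difference of 0.71 had an SE of 0.594 (limma, adjusted p = 0.849). It was 0.21 without control 2, 1.12 without control 4 and 0.05 on the stabilised values. The 3 tRNA genes are printed for their place between longer genes. mt-Ti shares its first 2 bases with the end of mt-Nd1 and its last 3 with mt-Tq on the opposite strand, in capitals, while mt-Tl1 and mt-Tm share none with a neighbour.
mt-Tl1: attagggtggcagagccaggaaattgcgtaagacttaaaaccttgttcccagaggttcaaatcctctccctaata
mt-Tm: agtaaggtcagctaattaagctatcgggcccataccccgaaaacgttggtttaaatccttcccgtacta
mt-Ti: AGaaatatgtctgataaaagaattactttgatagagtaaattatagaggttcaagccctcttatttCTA

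The other 7 tRNA genes with any count (mt-Tv, mt-Tq, mt-Tw, mt-Ta, mt-Tl2, mt-Te and mt-Tt) were not tested. The highest among them was mt-Tt, with 2.1, 12.7, 0.0 and 32.4 normalised counts in controls and 0.0, 11.4, 7.7 and 0.0 in mutants. A tRNA gene is only 59 to 75 bases long.

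Levels of the 12 tested genes were compared per kilobase of gene. In controls mt-Nd1 was highest, at 124262 ± 12470 normalised counts per kilobase (SD, n = 4), followed by mt-Cytb at 95568, mt-Nd2 at 56811, mt-Co1 at 51830 and mt-Nd5 at 41475. mt-Rnr2 at 18324, mt-Tl1 at 17522, mt-Rnr1 at 16837 and mt-Nd4 at 14045 formed a middle group whose control ranges overlapped from each to the next. mt-Nd6, at 2357, lay below that group in every control, and mt-Tm at 1453 and mt-Ti at 339 came last. Control ranges did not overlap between mt-Cytb and mt-Nd2, between mt-Nd5 and mt-Rnr2, between mt-Nd4 and mt-Nd6, or between mt-Tm and mt-Ti. For the other neighbours in the order they did.

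The order changed when the same counts were divided by the windows not found in another annotated transcript in place of the length. This scale assumes that the shared windows gave no counts, which was not tested. Per 1000 of the 50-base windows not found in another transcript, mt-Nd1 had 130967 normalised counts, mt-Co1 109544, mt-Cytb 99844, mt-Nd2 64945, mt-Nd5 46128 and mt-Nd4 38554 in controls. In the control means mt-Co1 moved from below mt-Nd2 to above mt-Cytb, and mt-Nd4 from below both rRNAs to above them. The move of mt-Nd4 holds for controls only. Per kilobase, mt-Rnr1 lay above mt-Nd4 in 3 of 8 libraries. In the mutant means per kilobase mt-Nd4, at 12128, was already above mt-Rnr2 at 11150.5 and mt-Rnr1 at 9866. mt-Rnr2 had 19109, mt-Rnr1 17747 and mt-Nd6 2603 on this scale. On it, mt-Co1 was above mt-Cytb and mt-Nd4 above mt-Rnr2 in 8 of 8 libraries.

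As a whole the 37 genes gave 1.23%, 1.66%, 1.94% and 1.65% of all normalised counts in controls 1 to 4, and 0.952%, 1.78%, 1.29% and 1.52% in mutants 1 to 4. The groups overlapped, and the listed zeros are missing from these sums. The means were 1.62% ± 0.293 (SD, n = 4) and 1.38% ± 0.351 (SD, n = 4), a difference of -0.235 percentage points. That difference was -0.0908 without mutant 1, the lowest library, -0.130 without control 3, the highest, and -0.366 without control 1 or mutant 2. Messages made up 1.13% to 1.74% of counts in controls and 0.886% to 1.64% in mutants. Summed skeletal muscle markers, from a tissue rich in mitochondria, were 46624 to 59362 in controls and ranged from 23829 in mutant 4 to 90888 in mutant 3. Markers of other cell types differed between the groups as well. Osteogenic markers summed to 214712 to 246457 in controls and 120253 to 198799 in mutants, without overlap, and all 11 tested of 12 had lower means (Bglap was listed at 0). Endothelial markers summed to 19241 to 21084 and 14383 to 19048, also apart, with lower means for 9 of 10. Chondrogenic markers had lower means for 9 of 10 tested, with sums of 34994 to 53590 and 18561 to 41342, which overlapped. Epithelial markers had higher means for 12 of 12, with sums of 30955 to 44574 and 34001 to 61179, and erythroid markers for 10 of 11 tested, with sums of 30202 to 40787 and 28113 to 58594, both with overlap. At an unadjusted limma p below 0.05, 7 osteogenic, 6 endothelial and 4 chondrogenic markers were lower, against 3.79% of all genes tested. At the same level 3 epithelial and 2 erythroid markers were higher, against 2.78%. The part of these markers in the mitochondrial values was not tested.

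Partners encoded in the nucleus were described from the same fit. Of 77 nuclear subunits of the respiratory complexes and ATP synthase, all tested, 54 had higher and 23 lower means in mutants. Their median log2 difference was 0.05, and single genes ranged from -0.11 (Ndufb2) to 0.55 (Ndufb4). Higher means were found for 50% of all genes tested. limma called none of the 77. Every mutant lay above every control for 3 of the 77 and below every control for 0, against 1.86% and 1.91% of all genes tested. The difference between this median and that of the mitochondrial genes was not tested.

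By complex, complex I had 22 higher and 14 lower means among 36 subunits. Complex III had 7 higher and 2 lower among 9, with Cyc1, its cytochrome c1, at 2573 to 2816 normalised counts in controls and 2934 to 3119 in mutants, without overlap. In complex IV all 12 subunits had higher means, with a median log2 difference of 0.08. Of the 12, 4 had an unadjusted limma p below 0.05, against 2.78% of all genes tested that were higher at this level. Cox8a had 2649 to 3091 in controls and 3088 to 3322 in mutants, and Cox7b and Cox5b overlapped as well. Complex II, which has no mitochondrially encoded subunit, had 2 higher and 2 lower means, and ATP synthase 11 higher and 5 lower among 16.

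The proteins of the mitochondrial ribosome, the partners of the rRNAs, had 51 higher and 30 lower means among 81 tested of 82 listed, with a median log2 difference of 0.04 and no call by limma. 5 of them had an unadjusted p below 0.05, all higher, against the 2.78% of all genes. Every mutant lay above every control for 2 of the 81, a share near the 1.86% of all genes tested. Mrpl44, of the large subunit, had 394.0 to 529.1 normalised counts in controls and 559.3 to 654.9 in mutants. Mrps10, of the small subunit, had 307.5 to 444.9 in controls and 404.6 to 602.9 in mutants, which overlapped.

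Genes for transcription and copying of the mitochondrial DNA had lower means for 14 of 17, yet the median log2 difference was -0.03 and none had an unadjusted p below 0.05. Polrmt, the mitochondrial RNA polymerase, had 1374 to 1683 normalised counts in controls and 1498 to 1808 in mutants. Polg2, the accessory subunit of the DNA polymerase, had 203.1 to 249.9 in controls and 173.2 to 223.8 in mutants. Both overlapped between groups.

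Genes that mature mitochondrial RNA were split, 12 higher and 9 lower of 21 for processing and stability and 18 higher and 6 lower of 24 for rRNA and tRNA modification. Mtpap, the mitochondrial poly(A) polymerase, had 807.2 to 929.5 normalised counts in controls and 679.2 to 848.6 in mutants, with overlap. Supv3l1, an RNA helicase of the mitochondrial degradosome, had 786.8 to 971.6 and 927.2 to 1106, with overlap. Mto1 and Yrdc, both needed for modified tRNA bases, lay higher in every mutant: Mto1 had 420.6 to 464.5 in controls and 507.6 to 533.5 in mutants, and Yrdc 379.6 to 494.9 and 548.2 to 633.2. Trit1, which modifies another tRNA base, lay lower in every mutant, at 447.3 to 518.4 in controls and 372.0 to 442.9 in mutants. Of the 24 modification genes, every mutant lay above every control for 2 and below every control for 2. These patterns were shown by 1.86% and 1.91% of all genes tested. limma called no gene of either list.

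Among the 22 mitochondrial aminoacyl-tRNA synthetases and related enzymes, 14 had higher and 8 lower means. Lars2, which charges the leucine tRNAs including mt-Tl1, had 18739, 25630, 24510 and 23335 normalised counts in controls and 14057, 14728, 13447 and 10168 in mutants, without overlap. Its log2 difference was -0.82 (limma, adjusted p = 0.0561), and it was the only gene of the 287 tested nuclear partners called under any setting, in 9 of 22 alternatives. Its adjusted p ranged from 1.21e-09 (DESeq2) to 0.367 (limma, without control 4) over those alternatives. The control mean of Lars2 was 23053, against 630 for Sars2 and 246 for Qrsl1 of the same list. Gm42418 and CT010467.1, of the nuclear rRNA locus, likewise lay lower in every mutant. Whether the counts of Lars2 hold reads from that locus was not tested. Qrsl1, part of the complex that makes glutaminyl-tRNA, had 212.8 to 277.9 in controls and 289.8 to 365.7 in mutants. Of the 22, every mutant lay below every control for 2 and above every control for 1, against 1.91% and 1.86% of all genes tested.

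Regulators of mitochondrial number were even, 5 higher and 5 lower of 10, with Ppargc1a, a transcriptional co-activator, at 187.4 to 330.9 normalised counts in controls and 166.6 to 266.3 in mutants. Among 20 genes used as markers of mitochondrial mass, 14 had higher means, and their summed counts were 79596 to 82765 in controls and 80738 to 84941 in mutants, with overlap. Cs, citrate synthase, had 6742 to 7388 in controls and 7160 to 8264 in mutants. Of 15 tested stress-response genes, 7 had higher and 8 lower means. Chac1, a glutathione-degrading enzyme, had 2.1 to 10.7 counts in controls and 13.3 to 37.4 in mutants, and did not pass the adjusted test either.

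**Figure D4:**
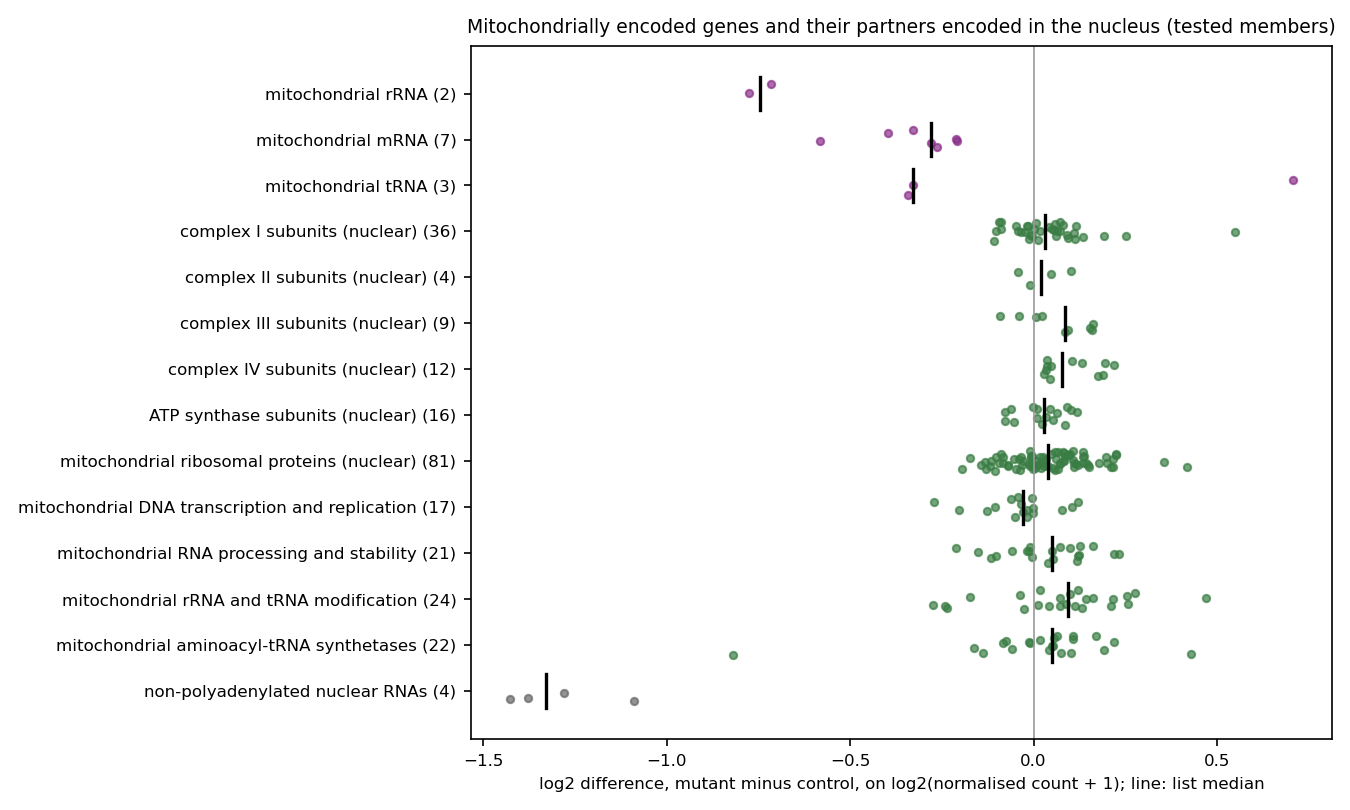
Each point is a tested gene and its place on the axis the log2 difference between mutants and controls on log2(normalised count + 1), with the number of genes in brackets and a black line at each list's median. Mitochondrial rRNA and mRNA genes (purple) lie left of 0, the lists encoded in the nucleus (green) are spread around 0 with Lars2 at -0.82 apart from the others, and the 4 non-polyadenylated nuclear RNAs (grey) lie farthest left.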

How the data were processed

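RNA of 4 control and 4 mutant shelf samples was sequenced, and replicate numbers follow the order of the samples. STAR 2.7.2 and DESeq2 (no version) are named per the submitters' processing notes. Not given in the sources used here are the counting tool, strand setting, treatment of reads matching several places, annotation and build. The signal values were deposited by the authors as normalised counts, that is reads divided by 1 size factor per library (0.939 to 1.06), and 94.4% to 100% of values between 50 and 5000 gave whole reads within 0.05. The log2 values are variance-stabilised values made by the authors and served 1 alternative. Start, end and strand of all 37 mitochondrial genes equalled GENCODE M21 (GRCm38), whose transcripts gave the sequences.

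limma 3.58.1 in R 4.3.3 tested log2(normalised count + 1), genotype only, two-sided with Benjamini-Hochberg adjustment at 0.05 over the 16647 genes with at least 10 in at least 4 of 8 libraries. A fold on this scale understates the change of low genes. The test was tried on simulated data. Members and lists were chosen with earlier results of these data known. Named were all mitochondrial genes, Yap1, Wwtr1, Lars2, Gm42418, Rn7sk, and up to 3 genes per list with the smallest p, though not all of those. Ndufb2, Ndufb4 and the remaining copies were named after their values were seen. Other settings tried were no filter or a filter on a mean of at least 50, pseudocounts of 0.5 and 8, 4 other scalings, library weights, robust variances, the stabilised values, title numbers as a block, leaving out each library, and edgeR 4.0.16 and DESeq2 1.42.0 on recovered reads. Figures used matplotlib 3.10.9.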

Additional observations from a re-analysis of the deposited data

Results flagged for a closer look

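Among 98 groups of 4 libraries examined for a sample standing apart, 1 did so, and chance marks about 1 in 20. It was mt-Nd1 in controls, where control 1 had 101128 normalised counts and the other 3 had 123452 to 126611. That gap is 0.876 of the whole range of the controls, past the 95% limit of Dixon's test for 4 samples. Control 1 was also the lowest control for the mitochondrial share of counts, at 1.23%.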

How the results depend on the processing

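Every tested member kept its direction under all 22 alternatives (21 for mt-Ti, which a mean of at least 50 removes), and 0 members were called under each of them. Without mutant 1 the log2 difference was -0.12 for mt-Nd1, -0.16 for mt-Nd2, -0.24 for mt-Nd5 and -0.09 for mt-Co1. Over all genes, 4 calls became 28 with DESeq2 and 0 with robust variances, and 0 to 11 when single libraries were left out (0 without control 2, control 4 or mutant 3, 11 without control 3 and 8 without mutant 4). Among the nuclear partners, 0 calls became 1, always Lars2, with DESeq2, library weights, a mean of at least 50, the title number as a block, trimmed mean of M-values or upper quartile scaling. Leaving out single libraries gave 0 to 1 (1 without control 1, mutant 2 or mutant 4). The cause was not tested. Title numbers used as a replicate block gave log2 differences of -0.77 for mt-Rnr1, -0.94 for mt-Rnr2 and -0.81 for mt-Nd6. Libraries numbered 3606 and 3621 add nothing to such a difference. Control and mutant libraries of the same number deviated from their group means with correlations of -0.008 to 0.1. Each library is part of its own group mean, so these values cannot show whether the number marks anything shared. With the number as a block, the SE fell for every tested rRNA and protein-coding gene and for mt-Tl1. The fall was from 0.213 to 0.115 for mt-Co1 and only from 0.202 to 0.197 for mt-Nd6. The SE rose from 0.594 to 0.798 for mt-Ti and from 0.327 to 0.432 for mt-Tm, both low in counts. Scaling to the sum of all genes moved the median of all genes by 0.08. Depth limits the low tRNA genes, since 0 counts allow up to 3 reads in a library, counting error only.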
